A study of Danio rerio with 2 samples.

Results

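RNA polymerase II (Pol II) was mapped by ChIP-seq in whole zebrafish embryos at 4 hours post fertilization (hpf), and the 1230 Pol II peaks on chromosome 3 are described here out of 20243 peaks in all. All peaks of the chromosome were taken, but its peak density was already known from earlier results of the same list. The dense bins and the evenly spaced cluster described below were chosen by their measured peak positions in those results. The density and the peak positions are therefore given as a description, with no test. The series holds 2 samples, both from untreated wild-type Tübingen embryos at 4 hpf (labelled WT Tubingen). The first is the Pol II ChIP made with antibody 8WG16, for which the labels name 2 libraries, and the second is the input chromatin taken without antibody, with 1 library. About 1000 embryos were pooled for each immunoprecipitation. The libraries were joined into 1 peak list, so no peak has a value per replicate and no comparison was tested. The mixture of cell types in a whole embryo cannot be resolved in such a list, nor can a region bound in many cells be told apart from one bound strongly in few.

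Pol II transcribes the protein-coding genes, and its recruitment to chromatin is a measure of where transcription is under way or prepared. The 8WG16 antibody binds the repeated heptads at the carboxy-terminal tail of the largest Pol II subunit and prefers the unphosphorylated form, which is the form that enters at promoters. In zebrafish, the embryo relies on RNA laid down by the mother until zygotic genome activation, and by 4 hpf large-scale transcription of the embryo's own genome has begun. In Pol II profiles a narrow peak often lies at a start site, and a broad stretch of signal can span the body of a strongly transcribed gene. Genes were not assigned to the peaks here, since an annotation of the genome build of the list, GRCz10, was not used. Regions are therefore given by position, and no sequence is shown for them.

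Chromosome 3 carried 19.7 Pol II peaks per Mb over the 62.3 Mb up to its last peak, against 12.9 per Mb on the other assembled chromosomes pooled. Chromosome 4 was left out of this background, since it holds 3001 peaks by itself. The ratio of the densities was 1.53 (95% interval 1.44 to 1.62). The other 23 chromosomes lay between 8.80 per Mb on chromosome 9 and 20.7 per Mb on chromosome 22, with a median of 12.9, so that chromosome 3 came second of 24. All intervals given here are exact binomial (Clopper-Pearson) or Poisson intervals, cover counting error only, and are too narrow where neighbouring peaks come from one bound region.

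**Figure D1:**
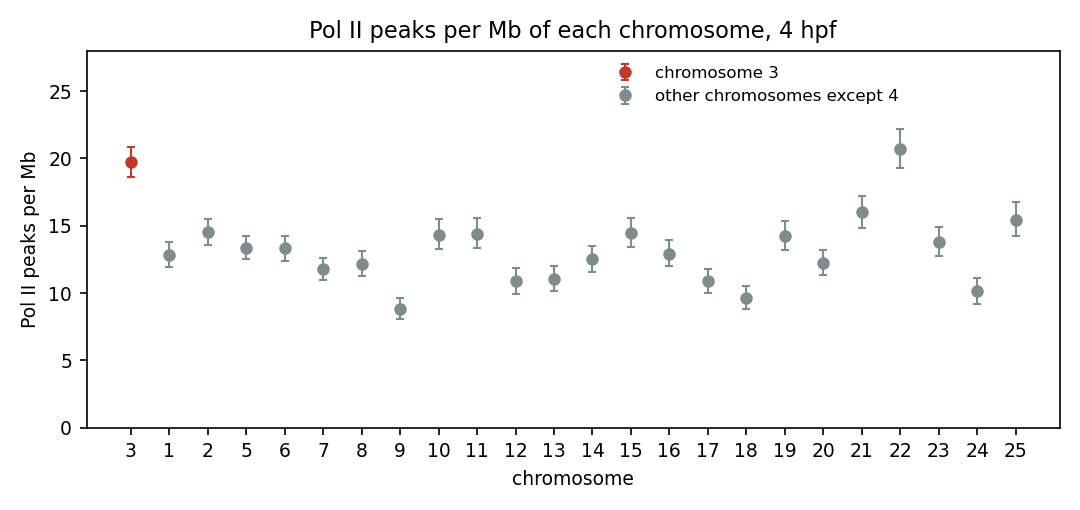
Pol II peaks per Mb (y axis) of each assembled chromosome except 4 (x axis), with chromosome 3 in red at the left; points are the peaks divided by the position of the last peak, and bars are exact Poisson 95% intervals. Chromosome 3 at 19.7 per Mb lies above every other chromosome except 22, at 20.7 per Mb.

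Each kind of peak counted was denser on chromosome 3, though not to the same degree. When peaks separated by at most 10 kb were stitched into clusters, chromosome 3 had 391 clusters, or 6.28 per Mb, against 4.59 per Mb on the other chromosomes, a ratio of 1.37 (1.23 to 1.52). Strong peaks, with a score of 177 or more, which is the upper quartile of the whole list, gave a ratio of 1.495 (1.33 to 1.68). The score is the number the peak caller gave each peak when the ChIP was set against the input. Its unit is not stated in the list, and it may be a measure of significance, which grows with read depth, and not of enrichment. Here "strong" means a high score and no more. Peaks of 5 kb or more gave 1.47 (1.19 to 1.80) and isolated peaks, with no other peak within 10 kb, gave 1.23 (1.05 to 1.44). For peaks of 10 kb or more the ratio was 1.32 with an interval of 0.894 to 1.89, so a higher density of these could not be told from an equal one at this number of peaks.

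Pol II peaks covered 2.31 Mb of chromosome 3, or 3.70% of its span, which was the highest share of the 24 chromosomes compared. The other chromosomes had a median of 2.57% and a highest value of 3.62%, on chromosome 22. The single peaks of chromosome 3 were close to those elsewhere in size and strength. Their median width was 855 bp (quartiles 462.5 and 1780 bp), against 860 bp (490 and 1830 bp) on the other chromosomes. Their median score was 78 (quartiles 48 and 173), against 76 (46 and 177). The strongest end of the scores was lower, with a 99th percentile of 2615 on chromosome 3 and 4522 on the others. Width and score went together across peaks, with a Spearman correlation of 0.664 over the 1230 peaks of chromosome 3 and 0.686 over the 15488 of the others. Why they went together was not tested. This correlation is a description and peaks are not independent samples.

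Strong and broad peaks made up a like share of the peaks on chromosome 3 and elsewhere. Of the 1230 peaks, 303 (24.6%, 22.2 to 27.1%) were strong, against 25.2% on the other chromosomes. A width of 5 kb or more was found for 102 (8.29%, 6.81 to 9.98%), against 8.62%, and a width of 10 kb or more for 32 (2.60%, 1.79 to 3.65%), against 3.01%. In each of these 3 cases the share on the other chromosomes lay inside the interval of chromosome 3. The 102 peaks of 5 kb or more, a small part of the list, held 44.6% of the bases covered on chromosome 3, against 45.3% on the others.

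Against the other chromosomes pooled, more of the peaks of chromosome 3 lay in larger clusters, though several single chromosomes had higher shares. Isolated peaks numbered 176 (14.3%, 12.4 to 16.4%), against 17.7% on the other chromosomes. Clusters of 5 or more peaks held 666 peaks (54.1%, 51.3 to 57.0%), against 51%, and clusters of 10 or more held 365 (29.7%, 27.1 to 32.3%), against 23.1%. Of the 24 chromosomes compared, chromosome 3 ranked 7 for the first share and 4 for the second. The other chromosomes reached 59.0% (chromosome 21) and 34.2% (chromosome 25). Clusters of 20 or more held 100 peaks (8.13%, 6.66 to 9.80%), against 4.55%, and 35 of these 100 lay in the evenly spaced cluster described below. Without that cluster, a setting chosen after seeing the data, the share in clusters of 5 or more was 52.8%, against 51.0%. Stitching used a fixed distance, so these shares are not separate from the higher density of chromosome 3. The share in clusters of 5 or more depended on which peaks were counted: among strong peaks alone it was 5.61% on chromosome 3 and 10.5% on the others, the opposite order. A cluster held 3.15 peaks on average on chromosome 3, against 2.41 to 3.21 on the single other chromosomes, the third highest of 24.

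Peaks of different cluster sizes differed in width. The 176 isolated peaks of chromosome 3 had a median width of 555 bp and 4.55% of them reached 5 kb, against 620 bp and 8.30% on the other chromosomes. The 301 peaks in clusters of 5 to 9 had a median width of 1050 bp and 10.6% reached 5 kb, against 940 bp and 8.41%. The 265 peaks in clusters of 10 to 19 followed the same pattern, with 1020 bp and 10.2%, against 930 bp and 7.92%. In clusters of 20 or more the median fell to 515 bp on chromosome 3, against 1070 bp on the others, a value to which the 35 narrow peaks of the evenly spaced cluster contribute. Of the 388 peaks in clusters of 2 to 4, 7.99% reached 5 kb, against 9.91%. On chromosome 3 the share of broad peaks was thus lowest among isolated peaks and in the clusters of 20 or more (4.00%, against 5.11% on the others). The evenly spaced cluster gives 35 of the 100 peaks in these largest clusters, and none of its peaks is wider than 700 bp. It therefore lowers their share, so the order against the others cannot be read apart from that cluster.

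Along chromosome 3 the density was highest at both ends and in the middle. In consecutive stretches of 10 Mb from the start there were 27.3, 18.0, 16.5, 27.8, 13.6 and 12.7 peaks per Mb. The last stretch, from 60 Mb to the last peak, held 71 peaks, or 31.0 per Mb (24.2 to 39.1). The 108 full stretches of 10 Mb on the other chromosomes had a median of 12 per Mb (quartiles 9.9 and 14.5), a range of 5.9 to 41.3, and 1 stretch at 27 or more. Chromosome 3 had 2 such stretches, 0 to 10 Mb with 273 peaks (24.2 to 30.7 per Mb) and 30 to 40 Mb (24.6 to 31.3 per Mb). These 2 stretches differed in their broad peaks: the first 10 Mb held 0 peaks of 10 kb or more, and the stretch from 30 to 40 Mb held 7.

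In full 1-Mb bins, chromosome 3 had a median of 15.5 peaks (quartiles 10.25 and 24, 62 bins), against 11 (5 and 18, 1188 bins) on the other chromosomes. A bin was covered by Pol II peaks over a median of 32.3 kb, against 19.01 kb. Only 1 of the 62 bins, from 50 to 51 Mb, held no peak, against 30 of the 1188. Bins with 50 or more peaks numbered 3 of 62 (4.84%), against 11 of 1188, or 0.926%. These are the bins that the choice of regions named, so the count is a description. They lay at 7 to 8, 15 to 16 and 32 to 33 Mb, with 77, 59 and 52 peaks. The next bins had 47 peaks (38 to 39 Mb), 41 (0 to 1 Mb) and 41 (19 to 20 Mb), so that the third dense bin was not far above its followers. Over the 62 bins the number of peaks correlated with the covered length (Spearman 0.783) and less with the number of clusters (0.670). Over the 61 bins with a peak its correlation with the median score was -0.198. The relations with covered length and with clusters are both partly built in. Each peak adds covered bases, and a bin cannot hold more clusters than peaks.

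**Figure D2:**
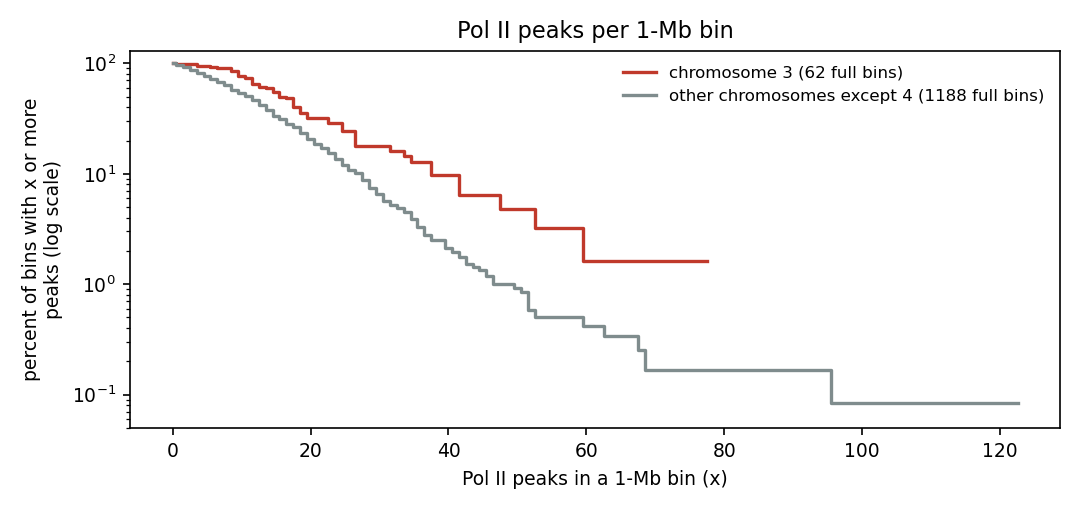
Percent of full 1-Mb bins (y axis, log scale) that hold at least the number of Pol II peaks on the x axis, for the 62 bins of chromosome 3 (red) and the 1188 bins of the other chromosomes except 4 (grey). The curve of chromosome 3 lies to the right up to its densest bin at 77 peaks, while the other chromosomes reach 122.

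The bin from 7 to 8 Mb had the most peaks and was made of many small clusters. Its 77 peaks (Poisson interval 60.8 to 96.2) formed 25 clusters, of which 10 were isolated peaks, 10 held 2 to 4 peaks and 5 held 5 or more. Only 2 of the 1188 bins of the other chromosomes had as many peaks and 1 had as many clusters, while 20 were covered by peaks over as long a length (88.63 kb). The peaks of this bin were moderate in height: their median score was 79, the highest was 594, and 20 were strong. A single peak reached 5 kb. Its largest cluster, chr3:7634951-7668980, held 11 peaks with a highest score of 301. The strongest cluster of the bin lay near its end, at chr3:7936811-7955150, where 8 peaks covered 14.67 kb. In 4 equal stretches along the bin the peaks numbered 27, 21, 21 and 8, and the neighbouring bins held 24 peaks (6 to 7 Mb) and 11 peaks (8 to 9 Mb). The dense stretch began before the bin and stopped within it: moving the window down by 0.5 Mb left 66 peaks, and moving it up left 32.

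The bin from 15 to 16 Mb held 59 peaks (44.9 to 76.1) in 14 clusters, of which 6 had 5 or more peaks and 2 were isolated. The bin before it was sparse, with 6 peaks, and the bin after held 14, near the median of 15.5 for bins of chromosome 3. Of the other chromosomes' bins, 6 had as many peaks, 7 as many clusters and 42 as long a covered length (81.01 kb). Its median score was 71. The strongest peak, at 884, belonged to a cluster of 4 at chr3:15974591-15992390, whose widest peak was 8150 bp, at the very end of the bin. The cluster with most peaks, chr3:15834401-15861310, had 9 peaks and a highest score of only 120. Windows moved down or up by 0.5 Mb held 34 and 37 peaks, so both sides of this bin contributed to its count.

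The bin from 32 to 33 Mb held 52 peaks (38.8 to 68.2) in only 10 clusters, and its peaks lay in a few long groups. As many clusters were found in 43 bins of the other chromosomes, but only 7 had as many peaks and 16 as long a covered length (90.66 kb). A single cluster of 22 peaks, chr3:32499491-32590910, held 42.3% of the bin's peaks and 37.76 kb of its covered length. It opened with a peak of 9000 bp with a score of 541, whose summit lay 4.17% into its width, and continued with 21 further peaks, of which the highest were 515 (2050 bp wide) and 496 (5910 bp wide). The strongest peak of the bin, at 2379, stood in another cluster, chr3:32221531-32234980, with 2 peaks of which the wider was 9970 bp. Peaks fell in the middle of the bin, with 4, 21, 24 and 3 in equal stretches along it, and the median space between them was 1110 bp, against 4020 bp in the bin from 7 to 8 Mb. A window moved down by 0.5 Mb held 56 peaks, more than the bin itself, and one moved up held 31.

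Few broad peaks lay in the dense bins. Together they held 188 peaks, 15.3% of those on chromosome 3, and the 3 densest bins of the single other chromosomes held 12.7% to 31.3% of theirs (median 17.7%). Of the 188 peaks 7 (3.72%) were 5 kb or wider, against 95 of 1042 (9.12%) in the rest of chromosome 3. None reached 10 kb, against 32 in the rest, though the widest, at 9970 bp, fell just short. Widths in the densest bins of the other chromosomes were not compared. The median width of the 188 peaks, 895 bp, and their median score, 72.5, were close to those of the rest (850 bp and 79). Of the 188, 21.8% were strong, against 25.1%. In a bin close by, from 5 to 6 Mb, there were 31 peaks, of which 16 (51.6%) were strong.

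A regular row of narrow peaks lay at chr3:38870851-38935540 in the bin from 38 to 39 Mb. It had 35 peaks in 64.69 kb, which made it the third largest of the 7021 clusters of the whole list by number of peaks. The cluster was selected on its spacing, so the values that follow describe it. From one summit to the next the distance was 1887.5 bp on average, with an SD of 53.1 bp over 34 spacings, or 2.81% of the mean, and a range of 1780 to 2005 bp. Of the 34 spacings 22 lay within 50 bp of the mean. A straight line through the summit positions gave a period of 1887.5 bp, and 32 of the 35 summits lay within 50 bp of it. The other 3 were peaks 5, 9 and 31, counted from the start, whose summits lay 82.5, 77.5 and 97.5 bp past the line. The spacing did not drift along the cluster, with a mean of 1889 bp over the first 17 spacings and 1886 bp over the last 17. Taken over 10 steps the distance was 18873 ± 46.2 bp (SD, 25 pairs), against an SD of 53.1 bp over 1 step. Over 30 steps, with only 5 pairs, the SD was 76.8 bp.

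**Figure D3:**
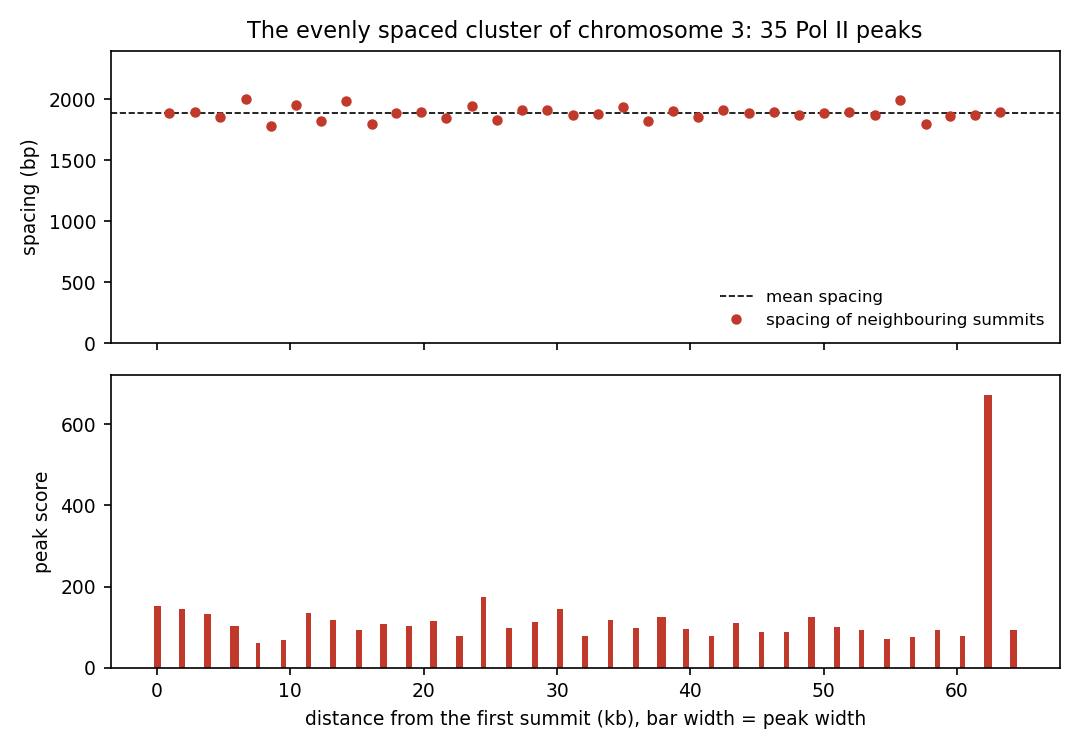
Spacing between neighbouring summits (upper panel, bp, with the mean as a dashed line) and score of each peak (lower panel, bars as wide as the peaks) against the distance from the first summit (kb) in the evenly spaced cluster of 35 peaks. The 34 spacings lie between 1780 and 2005 bp, and the score of peak 34, at 671, stands above the other 34 peaks, which reach at most 175.

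The peaks of the row resembled each other in width and, but for one, in score. Widths were 340 to 700 bp, with a median of 440 bp. The median score was 101, the lowest 61 at peak 5, and the highest 671 at peak 34, the last but one. The second highest was 175, at peak 14, so peak 34 was the single strong member. Scores changed little along the row: the first 12 peaks had a median of 112.5, the next 12 of 104.5 and the last 11 of 92. The peaks covered 16.21 kb, or 25.1% of the row, and were separated by spaces of 1240 to 1550 bp. The row could have no other peak within 10 kb of either end, since stitching at 10 kb defines it. The nearest peak before it, at chr3:38776501-38776810 with a score of 41, was 94.04 kb away, and the nearest after it, at chr3:38945911-38946250 with a score of 43, was 10.37 kb away. Among pairs of summits of the row up to 20 kb apart, the commonest distance was 3775 bp, or 2 steps of the row. It was the middle of 14 pair distances that lay within 20 bp of each other. Over 2 steps the spread (SD 41.2 bp) was smaller than over 1 (53.1 bp). Reads that fit several places equally well had each been put at 1 of them at random, which bears on repeated sequence, and whether the row lies in repeated sequence was not tested.

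Few large clusters were as evenly spaced over their whole length, on chromosome 3 or elsewhere. Chromosome 3 had 26 clusters of 10 or more peaks, and 1 of them, the row itself, had a spacing SD under 10% of the mean. On the other chromosomes 1 of 261 such clusters did, or 0.383%. Under 30% of the mean lay 5 of the 261, and on chromosome 3 still only the row. The row ranked second for evenness among 339 clusters of the whole list, after a cluster of 12 peaks at chr13:25182691-25235000, whose spacing of 4685 bp had an SD of 1.08% of the mean. The other 25 clusters of chromosome 3 lay far from both, between 40.2% and 160% with a median of 72.1%, against a median of 71.1% on the other chromosomes. Shorter even stretches were sought as runs of at least 5 summits with a spacing SD of at most 10% of the mean. Chromosome 3 had 3, or 2.44 per 1000 peaks, against 40 on the other chromosomes, or 2.58 per 1000 peaks. Those of chromosome 3 were the row and 2 runs of 5 summits, at chr3:19206196-19214111 (mean spacing 1978.75 bp) and chr3:31539126-31547496 (2092.5 bp). The longest such runs on the other chromosomes had 14 summits. They lay at chr15:7200586-7255606 (mean spacing 4232 bp), chr15:9882406-9937456 (4235 bp) and chr1:29968616-30030156 (4734 bp).

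**Figure D4:**
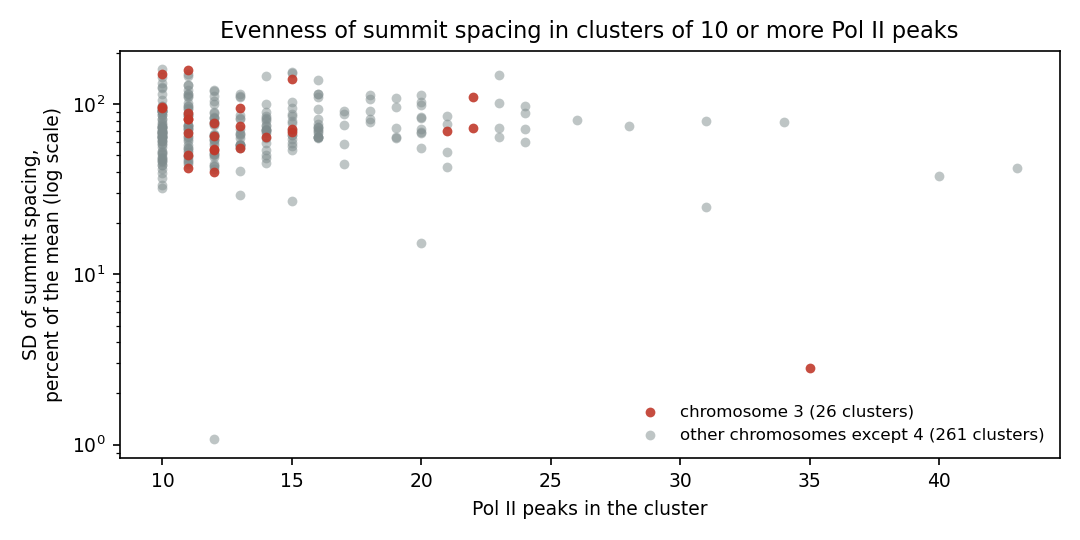
SD of summit spacing as a percent of its mean (y axis, log scale) against the number of Pol II peaks (x axis) in clusters of 10 or more peaks, with chromosome 3 in red and the other chromosomes except 4 in grey. The row of 35 peaks at 2.81% and the cluster of 12 peaks on chromosome 13 at 1.08% are the 2 points under 10%.

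Chromosome 3 held 32 Pol II domains, here peaks of 10 kb or more. They lay in 25 of the 1-Mb bins, from chr3:10182641 to 61140110, with a median width of 15.305 kb, and 6 were 20 kb or wider. Their scores ran between 156 and 20952 with a median of 996, against 1094.5 on the other chromosomes, and 31 of the 32 were strong in the sense used above (96.9%, against 96.8% on the others). The threshold did not fall in a gap: the narrowest domain was 10.13 kb and the widest peak below was 9.97 kb. At 5 kb, the peaks on either side were 5070 and 4960 bp.

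The widest domain was also the strongest. At chr3:47812631-47855440 Pol II was enriched over 42.81 kb with a score of 20952, eighth by width and 34th by score in the whole list. Its summit lay 23.5% into its width. It belonged to the cluster with the longest covered length on chromosome 3, chr3:47806701-47892670, whose 15 peaks covered 66.67 kb, or 77.6% of the cluster, seventh of the 7021 clusters of the list. The other 14 peaks were far weaker, from 26 to 163, and 12 of them followed the domain in a line of narrow peaks and peaks of up to 5290 bp. The second strongest peak, chr3:25126041-25145820, was 19.78 kb wide with a score of 13511, and it stood alone, with no neighbour within 10 kb. The third was chr3:29725931-29741900, 15.97 kb wide with a score of 8017. A second domain of 14.02 kb followed it at chr3:29754641-29768660, with 5 peaks of 27 to 58 between them.

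The order of the domains by width was not their order by score. After the widest, the next by width were chr3:19887721-19914570 (26.85 kb, score 1003), chr3:30752441-30778800 (26.36 kb, 1039), chr3:13692481-13718730 (26.25 kb, 2494) and chr3:24465681-24491770 (26.09 kb, 460). Of these the one of 26.36 kb stood alone and the others had neighbours. They were followed by chr3:34019521-34039860 (20.34 kb, 1234), the isolated peak of 19.78 kb, chr3:52744651-52764420 (19.77 kb, 730), chr3:16706621-16724560 (17.94 kb, 590) and chr3:31792631-31809910 (17.28 kb, 2245). The weakest of all 32, with a score of 156, was chr3:23420851-23433320, 12.47 kb wide, and it was separated by 410 bp from a domain of 12.43 kb with a score of 1284, chr3:23433731-23446160. Another pair of domains was also almost joined, chr3:16691911-16706360 (1483) and chr3:16706621-16724560 (590), with 260 bp between them. The smallest space between neighbouring peaks of the list was 210 bp.

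Among the remaining strong peaks several were not broad. The fourth strongest, chr3:1437921-1439030, had a score of 5904 over only 1110 bp and its summit at 50% of its width, within a cluster of 11 whose other members scored 47 to 281. The sixth, chr3:9151251-9153250, had 4503 over 2000 bp and shared its cluster, chr3:9140511-9153250, with peaks of 2232 over 640 bp and 1524 over 1300 bp. The rest of the 10 strongest were chr3:30563261-30568070 (5785, 4810 bp), chr3:40381701-40388180 (3625, 6480 bp), chr3:41775321-41788200 (3619, 12880 bp), chr3:59588591-59594450 (3523, 5860 bp) and chr3:37645161-37649910 (3448, 4750 bp). Of these, the peak of 6480 bp was isolated, whereas that of 5860 bp was followed after spaces of 270 and 230 bp by peaks of 1072 and 2237. Of the 49 peaks of chromosome 3 among the 1000 strongest of the whole list, 8 were narrower than 1500 bp, against 82 of 792 on the other chromosomes. Of these 8, 6 lay in the first 10 Mb, which held 273 of the 1230 peaks of chromosome 3. Between chr3:9065721 and 9182020 lay 4 of the 8, in a 1-Mb bin (9 to 10 Mb) that held 34 of the 1230 peaks. The limit of 1500 bp was chosen after the values were seen. Chromosome 3 held 6.08% of all peaks of the list, and 49 (4.9%) of the 1000 with the highest scores, 2 of the first 100 and 0 of the first 10. The highest counts on any single other chromosome were 76 of the first 1000, 20 of the first 100 and 7 of the first 10.

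The first 10 Mb of chromosome 3 were dense in peaks and poor in domains. Their 273 peaks scored 100 in the median, with a typical (median) width of 780 bp, and 8 (2.93%) were 5 kb or wider. In the following stretches of 10 Mb, these shares were 12.2%, 12.7%, 8.99%, 7.35% and 8.66%, and 7.04% in the last part. Domains of 10 kb or more numbered 0, 8, 10, 7, 3, 3 and 1 along the same stretches, so 25 of the 32 lay between 10 and 40 Mb. The 3 stretches from 10 to 40 Mb held 180, 165 and 278 of the 1230 peaks. Of the 108 stretches on the other chromosomes 3 held no domain and 2 had a share of peaks of 5 kb or more at or under 2.93%, their range being 2.86% to 21.3% with a median of 8.49%.

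Many domains had their summit near an end. In 20 of the 32 (62.5%, 43.7 to 78.9%) the summit was within the outermost 10% of the width at either end, 12 at the start and 8 at the end, against 232 of 466 (49.8%, 45.2 to 54.4%) on the other chromosomes. The intervals overlap, so no difference from the other chromosomes can be read from 32 domains. For peaks of 5 to 10 kb the share was 35.7%, against 34.4%, for 1 to 5 kb 5.30%, against 6.52%, and under 1 kb 3.26%, against 4.19%. On chromosome 3 as elsewhere this share rose with width. The outermost 10% is a longer stretch in a wide peak, so the share does not compare distances in bp between widths. At chr3:24465681-24491770 the summit was 300 bp from the start of a domain of 26.09 kb, and at chr3:30752441-30778800 it was 504 bp from the end of one of 26.36 kb. The 2 strongest domains differed from this, with summits at 23.5% and 62.8% of the width. The direction of transcription cannot be read here, as gene models were not used.

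**Figure D5:**
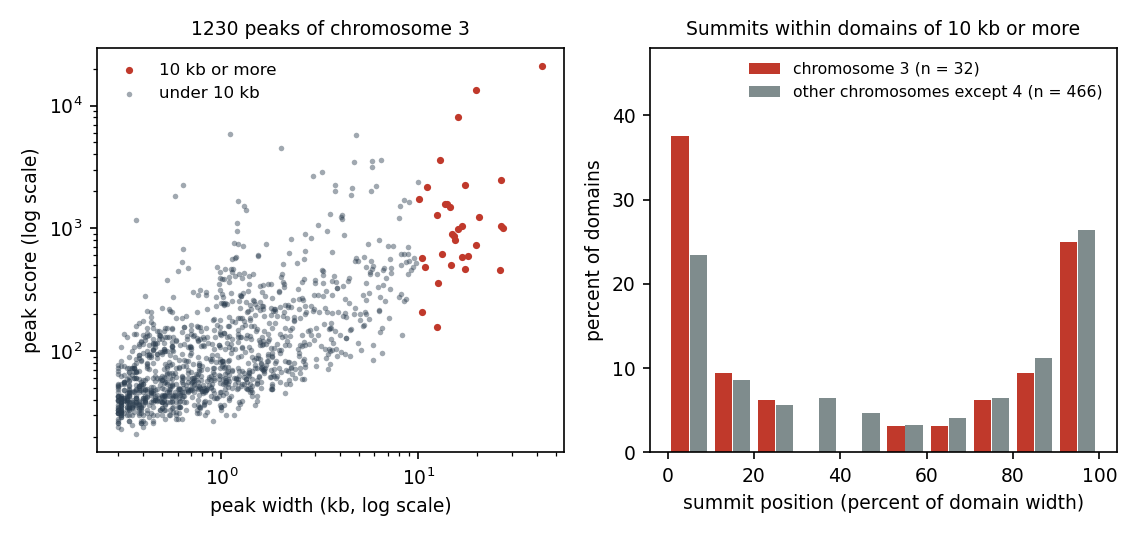
Left, score against width (kb) of the 1230 peaks of chromosome 3, both on log scales; right, percent of domains of 10 kb or more (y axis) by the position of the summit along the domain (x axis, percent of its width), for 32 domains of chromosome 3 (red) and 466 of the other chromosomes except 4 (grey). Score rises with width, with narrow strong peaks above the trend, and the outermost bars of the right panel together hold 62.5% of the domains of chromosome 3 and 49.8% of the others.

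Within 10 kb of its edges a domain had a median of 2.5 other peaks, against 2 on the other chromosomes, and 4 of 32 (12.5%, 3.51 to 29.0%) had none, against 21.03%. Over all peaks of chromosome 3 this share was 14.3%, against 17.7% on the others. For peaks of 5 to 10 kb, 4 of 70 (5.71%) had none, against 130 of 869 (14.96%). A fixed distance of 10 kb was used, so these shares are not separate from the higher density of chromosome 3. After the cluster of the widest domain, the longest covered lengths belonged to chr3:57875201-57923610 with 8 peaks over 41.92 kb (86.6% of the cluster), chr3:23382241-23450010 with 22 peaks over 41.88 kb (61.8%), chr3:27461331-27516440 with 15 peaks over 40.18 kb (72.9%), and chr3:35365731-35411880 with 7 peaks over 39.12 kb (84.8%). They were built differently. In the first of these, 4 peaks between 5590 and 14640 bp made up most of the cluster, with a highest score of 748. In the second, 19 peaks of 300 to 3840 bp and scores of 23 to 104 led up to the pair of domains near the end. With the row of 35 peaks, this cluster and chr3:32499491-32590910 (22 peaks each) were those with the most peaks. By covered length the row came only 44th of the 391 clusters.

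Long stretches without a peak were fewer on chromosome 3. It had 20 spaces of more than 500 kb, or 3.21 per 10 Mb, against 5.08 on the other chromosomes, where the range was 2.804 (chromosome 22) to 6.37. They summed to 15.5 Mb, 24.96% of the span, against 40.7% on the others (20.5% to 51.7%). Of the chromosomes compared only chromosome 22 was lower, and chromosome 4, which was left out, had 21.8%. The typical space was shorter too, with a median of 2060 bp to the next peak, against 2550 bp. Spaces of more than 1 Mb numbered 4, or 0.642 per 10 Mb, against 0.942. More peaks on a span leave shorter spaces, so these values are not separate from the higher density of chromosome 3. A space holds no peak that passed the caller's threshold, which does not show that Pol II was absent.

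The longest space, chr3:49982931-51288170, ran for 1305.24 kb between peaks of 530 bp (score 99) and 450 bp (104) and contains the one empty bin. The second, chr3:43110261-44327980, was 1217.72 kb long and had weak peaks at its borders, with scores of 43 and 52. The third, chr3:16724561-17783230, was of another kind: over 1058.67 kb it connected a domain of 17940 bp (590) with one of 15280 bp (863). The fourth, chr3:28503791-29509990, was 1006.2 kb long and began at the end of a cluster of 15 peaks. The fifth, chr3:12740361-13692480, was 952.12 kb long and ended at the domain of 26250 bp with a score of 2494. The sixth longest, chr3:19914571-20797030, began at the domain of 26850 bp. Of the 20 spaces over 500 kb, 3 (the third, the fifth and the sixth longest) had a domain of 10 kb or more at a border. Each space has a border peak at both ends, and domains were 2.60% of all peaks of chromosome 3. The same count was not made on the other chromosomes.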

How the data were processed

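Pol II ChIP-seq reads of 4 hpf embryos were aligned to GRCz10 with Novoalign 2.8 by the authors, who placed a read with several equal positions at 1 of them at random. SAMtools and MACS2 are also named in the submitters' processing notes. The ChIP replicates were pooled and set against the input in a single MACS2 call, which yielded 1 narrowPeak list. The deposited score of each peak is a whole number of 20 or more without a stated unit, was used only for ranks and levels, and rests on a read depth that is not given in the list. The columns for fold enrichment, p and q hold 0 and were not used. The input entered only through that call. Peak bounds are multiples of 10 bp, no peak is narrower than 300 bp and no space between neighbouring peaks is shorter than 210 bp.

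Positions were counted with Python 3.11.15, pandas 2.3.3, numpy 2.4.6, scipy 1.17.1 and matplotlib 3.10.9. A peak was placed in a bin by its summit, and the end of the last peak stood for a chromosome's length. Peaks within 10 kb were stitched. The counting steps were tested on a simulated list with peaks at random places and a planted even cluster. Such a list lacks the clustering of the real peaks, so it does not test the intervals under clustering. Named regions are the 10 highest scoring and 10 widest peaks, 5 clusters by covered length and 3 by number of peaks, 3 dense bins, the evenly spaced cluster and the 5 longest spaces; any other was added after its values were seen. The members and lists were chosen with earlier results of these data known. Alternatives changed the stitching space, score threshold, merging, bin position, width threshold and background. Genes and sequences were not analysed.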

Additional observations from a re-analysis of the deposited data

How the results depend on the processing

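Counting units set the level but not the order of the densities. Peaks per Mb of chromosome 3 became 4.86 with strong peaks (a score of 177 or more) alone, 15.7 with peaks merged within 500 bp and 6.28 with clusters. The ratio to the other chromosomes moved to 1.36 with chromosome 4 in the background, 1.37 with clusters and 1.36 without the 3 dense bins, which were removed from chromosome 3 only. It was 1.56 without the 3 densest bins of every chromosome and 1.49 without the evenly spaced cluster. These last settings, and the share in clusters of 5 or more without that cluster (52.8%, against 51.0% on the other chromosomes), were chosen after seeing the data. The bin at 7 to 8 Mb held 32 peaks when moved up by 0.5 Mb, 20 strong peaks and 25 clusters. The bin at 15 to 16 Mb held 34 when moved down, 37 when moved up, 12 strong peaks and 14 clusters. The bin at 32 to 33 Mb held 31 when moved up, 9 strong peaks and 10 clusters. The share in clusters of 5 or more was 45.9% with stitching at 5 kb (42.4% on the other chromosomes), 64.7% at 20 kb (57.8%) and 5.61% with strong peaks (10.5%), where the order turned and the cause was not tested. The share of wide peaks was 2.60% at 10 kb and 12.5% with merged peaks (12.95% on the others). Summit pairs at the commonest distance numbered 22 when their distances could lie within 50 bp of each other. Spaces over 500 kb numbered 38 with strong peaks, and spaces over 1 Mb 4. No paired analysis was possible because 1 joint list holds both ChIP libraries, and leaving out a replicate was not run. The planned use of reference chromosome lengths was not run. The lack of replicate values and of read depth limits every count: a region without a peak is one without a call.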
